A study of Mus musculus with 18 samples.

Results

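Recombinant mouse serum albumin (rMSA) was set against no albumin in AML12 hepatocytes that also received insulin: 3 rMSA + insulin libraries against 3 insulin libraries, which are 6 of the 18 samples of the study. AML12 is an immortalized line of mouse hepatocytes, labelled wild type, and the groups differ only in the albumin. All cells were kept in a medium that holds serum, insulin and dexamethasone, starved overnight in serum-free DMEM, and then given 10 nM insulin with 600 µM rMSA, or 10 nM insulin alone, for 24 h. The rMSA group (600 µM, no insulin) and the vehicle group, 3 libraries each, serve here for the test of whether the difference made by rMSA was another one without insulin, and livers of db/db mice were also sequenced. The values are TPM, a measure of transcript level per length and per library, as the authors deposited them. Of the 15579 genes in the table, 10702 averaged 1 TPM or more over these 6 libraries and were tested. Neither the labels nor the methods tell if the libraries are separate cultures, so the p-values measure the spread between these samples, which may be technical.

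Albumin is the main protein of blood plasma. It is made by hepatocytes and carries fatty acids, hormones, bilirubin and metals. Insulin acts on hepatocytes through its receptor and the kinase AKT, which holds back the transcription factor FOXO1 and favours glycolysis and lipid synthesis. Hepatocytes also answer to inflammatory cytokines: NF-kappaB, STAT3 and C/EBP factors then switch on acute phase proteins and chemokines.

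With rMSA, 203 genes (1.9% of those tested) were called different under insulin. The 10 largest rises were those of the colony-stimulating factor Csf3, the chemokines Cxcl1, Cxcl3 and Cxcl5, the acute phase protein Saa3, the barrier proteins Sprr1a and Sprr2h, the AP-1 subunit Fosl1, the cyclooxygenase Ptgs2 and the chitinase-like Chil1. Among the 10 largest falls were those of the interferon-stimulated genes Ifit3 and Ifit3b, angiotensinogen (Agt), the chemokine Cxcl17 and antitrypsin genes. To be called, a gene needed a change of at least 2-fold and an adjusted p under 0.05 (limma with Benjamini-Hochberg adjustment over all genes tested), and "passed" stands for an adjusted p under 0.05 alone. In all, 175 genes were called higher (1.64% of those tested) and 28 lower (0.262%), and 289 passed in the upward direction (2.7%) and 42 in the downward direction (0.392%), 3.09% in either. These shares are those to set beside the count given for each gene list below. At an unadjusted p under 0.05 there were 1600 genes upward (15%) and 293 downward (2.74%). Fold changes are differences of means on the log2(TPM + 1) scale, rMSA + insulin minus insulin, given as log2 values ± SE with 3 libraries in each group, and they understate the change of genes near 1 TPM. Of the 175 genes called higher, 41 averaged under 1 TPM in insulin, so they were tested only because of their level in rMSA + insulin and had to be higher there. Csf3, Csf2, Ptgs2, Sprr1b, Sprr2h, Tnfrsf1b, Orm1, Aldh3a1 and Stab1 are among them. Socs1, which passed below 2-fold, was in the same position. Conversely, Ifit3b, Ifit3, Csf1r, Serpina1a and Wnt4 averaged under 1 TPM in rMSA + insulin. They were tested only because of their level in insulin and had to be lower with rMSA.

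The insulin libraries differed among themselves far more than the rMSA + insulin libraries did. Insulin libraries 2 and 3 differed by at least 2-fold in 3530 genes (33.0%), and library 1 differed that much from library 2 in 715 genes and from library 3 in 722, whereas pairs of rMSA + insulin libraries did so in 18, 19 and 63 genes. The median SD within a group was 0.136 on the log2 scale in rMSA + insulin and 0.364 in insulin. The share of TPM in genes of cytosolic ribosomal proteins was 26.3%, 28.5% and 25.1% in the rMSA + insulin libraries, against 34.7%, 37.5% and 27.7% in the insulin libraries. The median gene tested had 18.8, 16.5 and 20.2 TPM in rMSA + insulin, against 15.0, 11.4 and 21.0 TPM in insulin. Over all genes the log2 fold change had a median of 0.21, and it was 0.25, 0.53 and -0.13 when the rMSA + insulin mean was set against insulin library 1, 2 or 3. Whether the difference between insulin libraries is technical was not tested. In the insulin columns 0 genes were at 0 TPM in all 3 libraries, against 612 in the rMSA + insulin columns. Whether the table was filtered on the insulin columns is not given in the sources used here, so genes at 0 in all insulin libraries and higher with rMSA may be missing from the genes called higher.

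**Figure D1:**
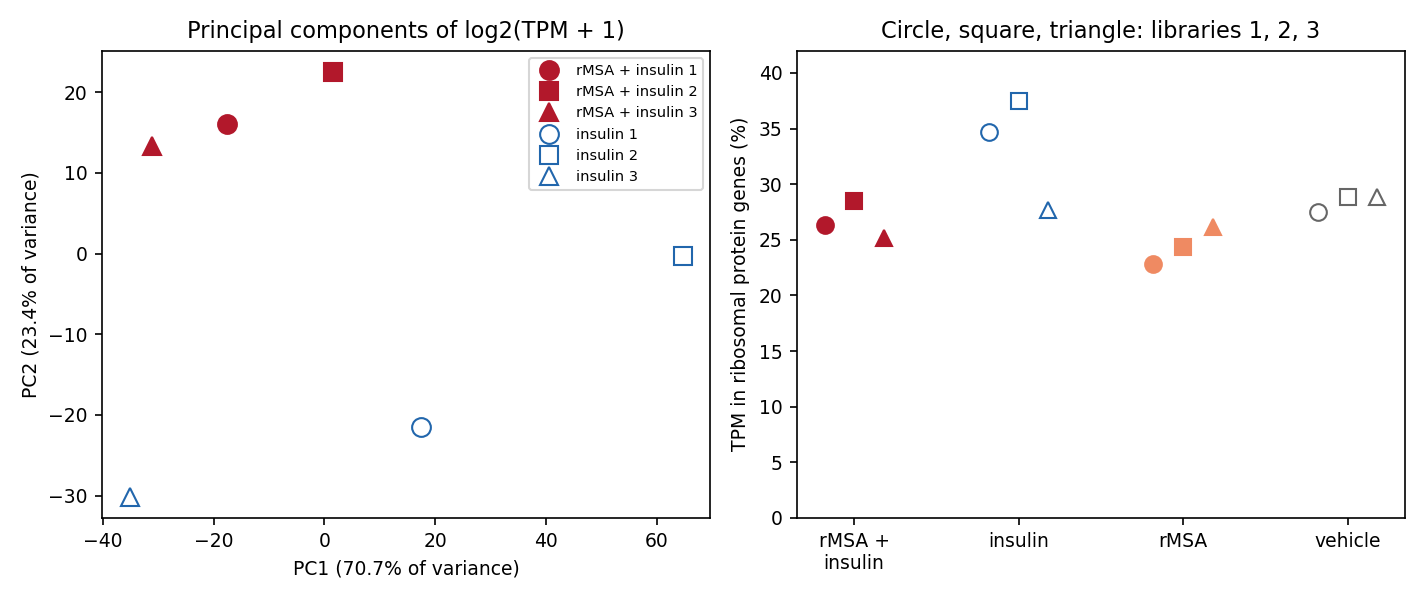
Left, the 6 libraries compared on the first and second principal components of log2(TPM + 1), which hold 70.7% and 23.4% of the variance. Right, the percentage of all TPM in genes of cytosolic ribosomal proteins per library of the 4 AML12 groups. The insulin libraries lie far apart on the first component, with library 2 at one end and library 3 at the other, and insulin libraries 1 and 2 have the highest ribosomal shares, 34.7% and 37.5%.

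Because of this spread, most genes below are given with their value in every library, and the 3 insulin libraries are said to agree where all of them lie on the same side of all 3 rMSA + insulin libraries. All 203 called genes met this. Over all genes tested the groups did not overlap for 2232 higher genes (20.9%) and 515 lower genes (4.81%), so agreement alone is common here. Among the called genes, 121 of 175 higher and 20 of 28 lower ones differed by at least 2-fold from each single insulin library, and 140 and 24 did so from insulin library 3. Conversely, 1509 genes lay at least 2-fold above insulin library 2 without lying above insulin library 3, and 98 genes with a log2 fold change of at least 1 did not pass. In 112 of the 175 higher and 16 of the 28 lower genes the difference between rMSA and vehicle was called in the same direction too, against 1.49% (higher) and 0.29% (lower) of all genes tested.

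**Figure D2:**
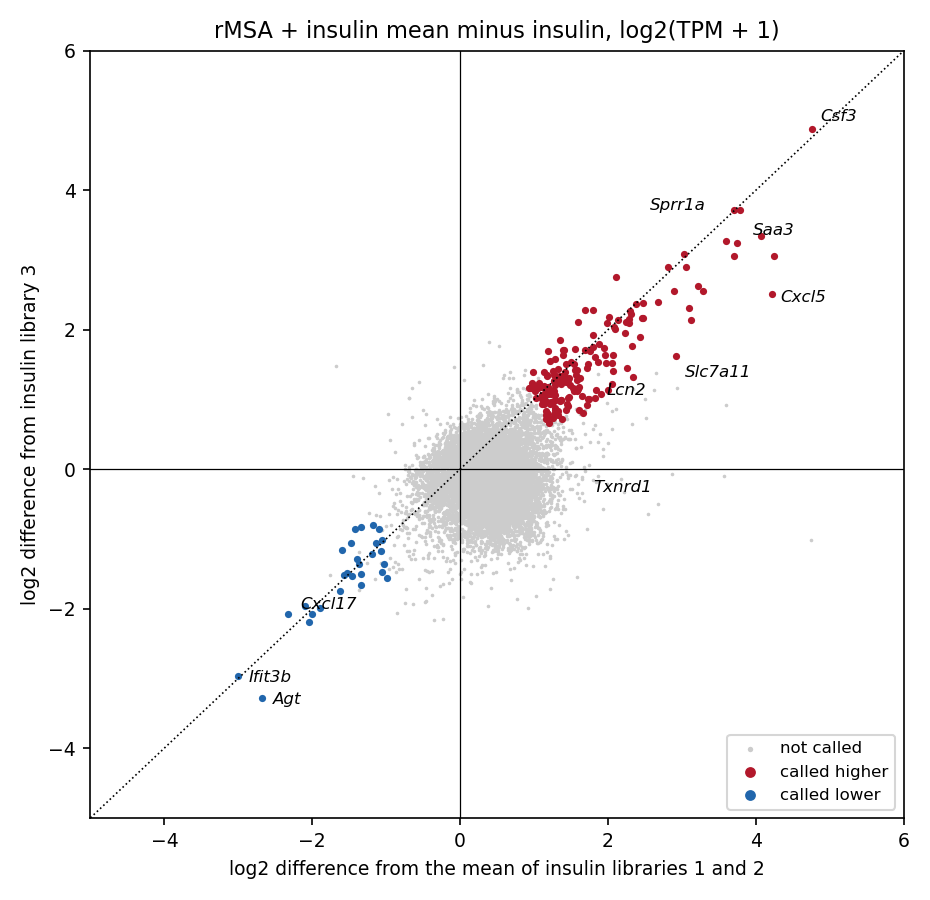
Each point is a gene tested, with the difference between the rMSA + insulin mean and the mean of insulin libraries 1 and 2 on the horizontal axis and the difference from insulin library 3 on the vertical axis, both on the log2(TPM + 1) scale. Genes called higher are red, genes called lower blue and the others grey. The called genes lie near the dotted line of equal differences, whereas most of the grey cloud is shifted to the right, as the medians of 0.25 and 0.53 against insulin libraries 1 and 2 and of -0.13 against library 3 show.

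The count of calls depended on single libraries. It was 35 without insulin library 1, 250 without insulin library 2 and 566 without insulin library 3, and 40, 46 and 34 without rMSA + insulin library 1, 2 or 3. With insulin library 3 as the only insulin library, 338 genes were called (181 higher, 157 lower), and 164 of them were among the 203. Centring each library on its median left 147 calls, of which 63.3% were higher against 86.2% as deposited, and 104 of these were among the 203. Of 91 genes named by the rule given with the processing, 76 passed, 0 of the 76 changed direction under any alternative run, and 15 passed in every one: Areg, Chil1, Csf3, Cxcl1, Fosl1, G6pdx, Gsta1, Hp, Ier3, Ifit3b, Itgb7, Plin2, Saa3, Sprr1a and Sprr2h, of which Sprr2h was too low to be tested with the filter at 5 TPM. After median centring, 36 of the 76 no longer passed. All 76 still passed without insulin library 2 and without insulin library 3. The libraries without which some genes no longer passed were insulin 1 (57 of the 76 genes) and rMSA + insulin 1, 2 and 3 (52, 51 and 57 genes), and the highest adjusted p so reached is given below as the leave-one-out adjusted p.

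Csf3 (chr11:98700183-98703631, GRCm38), which encodes the growth factor that drives neutrophil production, rose most of all genes with 1 TPM added. It had 39.4, 41.9 and 38.9 TPM in rMSA + insulin, against 0.43, 0.62 and 0.4 TPM in insulin (log2 fold change 4.79 ± 0.17, adjusted p = 0.00021), and without a single library its adjusted p stayed at or below 0.011. All 3 insulin libraries lay below 1 TPM and agreed. Since the level in insulin was so low, the log2 fold change was 6.12 with 0.1 TPM added and 3.04 with 5 TPM added. Cxcl1 and Saa3 stayed at or above 3.34 and 3.41 over the alternatives other than array weights, so Csf3 was not first with 5 TPM added. Csf2, the granulocyte-macrophage factor, had 5.51, 3.72 and 5.18 TPM in rMSA + insulin, against 0.29, 0.48 and 1.46 TPM in insulin (1.78 ± 0.28, adjusted p = 0.028, leave-one-out adjusted p = 0.17). Il34, a ligand of the Csf1 receptor, had 18.8, 21.7 and 19.2 TPM in rMSA + insulin, against 6.93, 7.97 and 7.81 TPM in insulin (1.29 ± 0.16, adjusted p = 0.013, leave-one-out adjusted p = 0.13). Agreement among the insulin libraries held for both, and library 3 had the most Csf2 of them. Csf1, the other ligand of that receptor, had 180.42, 158 and 191 TPM in rMSA + insulin, against 73.2, 83.5 and 138 TPM in insulin and did not pass (adjusted p = 0.12), although the groups did not overlap. Of 8 colony-stimulating factors and cytokines tested, 3 passed upward (Csf3, Csf2 and Il34) and 0 downward. The median log2 fold change was 0.89, against 0.21 over all genes. Csf3 and Csf2 averaged under 1 TPM in insulin, so they were tested only because of their level with rMSA and had to be higher there.

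Chemokines that bind the neutrophil receptor Cxcr2 rose together. Cxcl1 had 915, 827 and 1004 TPM in rMSA + insulin, against 57.1, 49.7 and 89.2 TPM in insulin (3.83 ± 0.22, adjusted p = 0.0017). Cxcl5 had 867, 616 and 1038 TPM in rMSA + insulin, against 61.2, 30.6 and 143 TPM in insulin (3.65 ± 0.53, adjusted p = 0.02, leave-one-out adjusted p = 0.14). Cxcl3 had 166, 142 and 196 TPM in rMSA + insulin, against 10.4, 5.82 and 19 TPM in insulin (3.85 ± 0.38, adjusted p = 0.0074, leave-one-out adjusted p = 0.062). Cxcl2, the lowest of the 4, had 15.7, 14.2 and 19.6 TPM in rMSA + insulin, against 1.23, 0.57 and 1.82 TPM in insulin (3.02 ± 0.27, adjusted p = 0.0051, leave-one-out adjusted p = 0.06). In each of the 4 genes insulin library 3 was the highest insulin library and insulin library 2 the lowest, and all 3 agreed in lying below rMSA + insulin. For Cxcl5 the highest insulin library was 4.68 times the lowest, against 1.8 times for Cxcl1. Cxcl17, a chemokine of mucosal surfaces, fell instead: it had 11.2, 8.21 and 9.34 TPM in rMSA + insulin, against 63.1, 42.7 and 43.2 TPM in insulin (-2.24 ± 0.21, adjusted p = 0.0067, leave-one-out adjusted p = 0.052), and the insulin libraries agreed. Ccl2, which attracts monocytes, had 2982, 2468 and 3127 TPM in rMSA + insulin, against 1444, 849 and 1802 TPM in insulin (log2 fold change 1.13). Ccl20, which attracts cells with the receptor Ccr6, had 226, 183 and 255 TPM in rMSA + insulin, against 109, 66.2 and 164 TPM in insulin (log2 fold change 1.04). The groups did not overlap for either, but neither passed (adjusted p = 0.091 and 0.16). Of 14 chemokine ligands tested, 4 passed upward and 1 downward, with a median log2 fold change of 0.84.

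Cxcl1, Cxcl2 and Cxcl3 lie near each other on chromosome 5, and their start sites are shown because all 3 carry letters of the NF-kappaB element just upstream. The stretch printed is the last 110 bases before the RefSeq start site (GRCm38.p6), read 5′ to 3′ on the gene's strand, with matches to GGG, any 2 bases and TTTCC, on either strand, in capitals.
Cxcl1 (chr5:90891135-90891244, plus strand): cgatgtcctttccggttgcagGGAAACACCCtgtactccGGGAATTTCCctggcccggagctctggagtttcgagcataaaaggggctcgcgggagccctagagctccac
Cxcl2 (chr5:90903789-90903898, plus strand): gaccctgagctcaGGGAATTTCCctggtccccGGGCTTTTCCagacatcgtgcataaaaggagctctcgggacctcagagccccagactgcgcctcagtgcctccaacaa
Cxcl3 (chr5:90785991-90786100, plus strand): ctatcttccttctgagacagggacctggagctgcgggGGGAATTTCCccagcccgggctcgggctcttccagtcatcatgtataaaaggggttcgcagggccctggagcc
The matches began 89 and 71 bases before the start site in Cxcl1, 97 and 78 in Cxcl2 and 73 in Cxcl3. Among promoters of the same length (250 bases before the start site), 5.15% of the 136 genes called higher that had a window held such a match, against 1.45% of all 8670 tested genes with a window. The genes called higher with a match were 7, with Cxcl1, Cxcl2 and Cxcl3, shown for it, among them. Of the 19 genes called lower with a window, 0 had one. A match is a run of letters and not a measured binding site.

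Of 23 subunits of NF-kappaB and feedback genes tested, 3 passed upward and 0 downward, with a median log2 fold change of 0.55. Zc3h12a, an RNase that degrades inflammatory transcripts, had 61, 58 and 55.2 TPM in rMSA + insulin, against 13.2, 22.4 and 17.1 TPM in insulin (1.70 ± 0.20, adjusted p = 0.01, leave-one-out adjusted p = 0.094). Irak3, an inhibitor of Toll-like receptor signalling, had a log2 fold change of 1.31 ± 0.20, adjusted p = 0.023 (leave-one-out adjusted p = 0.18), and Ikbke, an IkappaB kinase-related kinase, one of 0.79 ± 0.15, adjusted p = 0.048 (leave-one-out adjusted p = 0.27). In all 3 genes the insulin libraries agreed. The insulin libraries did not agree for the subunit Nfkb1, which had 41, 26 and 45.7 TPM in rMSA + insulin, against 18.8, 9.41 and 53.2 TPM in insulin, nor for the inhibitor Tnfaip3. Tnfaip3 had 20.6, 11.9 and 22.8 TPM in rMSA + insulin, against 10.3, 3.52 and 26.8 TPM in insulin. In both, insulin library 3 was the highest of the 6 libraries and insulin library 2 the lowest (adjusted p = 0.56 and 0.60). The inhibitor Nfkbia, at 87.6, 70.5 and 89 TPM in rMSA + insulin, against 53.4, 32.2 and 75 TPM in insulin, overlapped as well.

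Among receptors of cytokines and microbial patterns, 2 of 19 passed upward (2.7% over all genes) and 1 downward (0.392%). The tumour necrosis factor receptors Tnfrsf1a (log2 fold change 0.64 ± 0.12, adjusted p = 0.041, leave-one-out adjusted p = 0.26) and Tnfrsf1b (1.14 ± 0.20, adjusted p = 0.037, leave-one-out adjusted p = 0.22) rose. Csf1r, the receptor of Csf1 and Il34 and a macrophage gene, had 0.34, 0.27 and 0.36 TPM in rMSA + insulin, against 2.66, 2.3 and 2.23 TPM in insulin (-1.36 ± 0.13, adjusted p = 0.0074, leave-one-out adjusted p = 0.073), so it was near 0 with rMSA. In STAT3 and C/EBP factors and their feedback genes, 2 of 14 passed upward and 0 downward. Cebpd, a C/EBP factor of the acute phase, had 6.34, 5.64 and 6.2 TPM in rMSA + insulin, against 2.94, 2.84 and 3.03 TPM in insulin (0.84 ± 0.16, adjusted p = 0.048, leave-one-out adjusted p = 0.31). Socs1, an inhibitor of cytokine signalling, had 1.72, 2.12 and 2.14 TPM in rMSA + insulin, against 0.24, 0.64 and 0.79 TPM in insulin (0.96 ± 0.18, adjusted p = 0.049, leave-one-out adjusted p = 0.26). All insulin libraries agreed for these 5 genes. Tnfrsf1b and Socs1 averaged under 1 TPM in insulin, so they had to be higher with rMSA. Csf1r averaged under 1 TPM in rMSA + insulin, so it had to be lower there. The median of the STAT3 and C/EBP list was 0.57, but -0.14 against insulin library 3 alone. Cebpb had 177, 134 and 194 TPM in rMSA + insulin, against 53.6, 43.6 and 126 TPM in insulin; the groups did not overlap and the gene did not pass (log2 fold change 1.31, adjusted p = 0.15). Stat3 itself had 21.1, 14.5 and 23.3 TPM in rMSA + insulin, against 11.4, 6.15 and 24.7 TPM in insulin, with insulin library 3 above all others.

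Acute phase proteins are plasma proteins that the liver secretes in inflammation. Saa3, an inducible serum amyloid A, had 3989, 4236 and 4228 TPM in rMSA + insulin, against 188, 478 and 316 TPM in insulin (3.76 ± 0.31, adjusted p = 0.0041), and its insulin libraries agreed although the highest of them was 2.55 times the lowest. Hp (haptoglobin, which binds free haemoglobin) had 248, 236 and 226 TPM in rMSA + insulin, against 25.3, 42.5 and 30.9 TPM in insulin (2.84 ± 0.19, adjusted p = 0.002). Hpx (hemopexin, which binds haem) had 347, 275 and 352 TPM in rMSA + insulin, against 150.4, 121 and 193 TPM in insulin (1.08 ± 0.19, adjusted p = 0.04, leave-one-out adjusted p = 0.23). Orm1 (orosomucoid) had 2.13, 2 and 1.88 TPM in rMSA + insulin, against 0.39, 0.26 and 0.19 TPM in insulin (1.23 ± 0.13, adjusted p = 0.0091, leave-one-out adjusted p = 0.078). All 4 agreed, and 4 of 10 acute phase genes passed upward and 0 downward, with a median log2 fold change of 0.80. The list was mixed, with a lowest log2 fold change of -0.69. The insulin libraries agreed upward in 5 of the 10 (20.9% over all genes) and downward in 2 (4.81%). At an unadjusted p under 0.05 (limma) there were 6 upward (15% over all genes) and 2 downward (2.74%). Orm1 averaged under 1 TPM in insulin, so it had to be higher with rMSA. Lcn2, which binds bacterial siderophores, had 1447, 1674 and 1616 TPM in rMSA + insulin, against 212, 874 and 612 TPM in insulin: every rMSA + insulin library was above every insulin library, but insulin library 1 lay far below the other insulin libraries and the gene did not pass (log2 fold change 1.70, adjusted p = 0.13). Of 9 complement genes, 0 passed by limma and 3 had an unadjusted p under 0.05, all in the upward direction, against 15% upward over all genes. The most abundant of them, C3, had 487, 428 and 441 TPM in rMSA + insulin, against 212, 311 and 299 TPM in insulin (log2 fold change 0.74 ± 0.16, adjusted p = 0.072). Cfb had 259, 222 and 249.74 TPM in rMSA + insulin, against 157, 145 and 189 TPM in insulin (log2 fold change 0.58 ± 0.13, adjusted p = 0.075). Neither overlapped between groups.

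**Figure D3:**
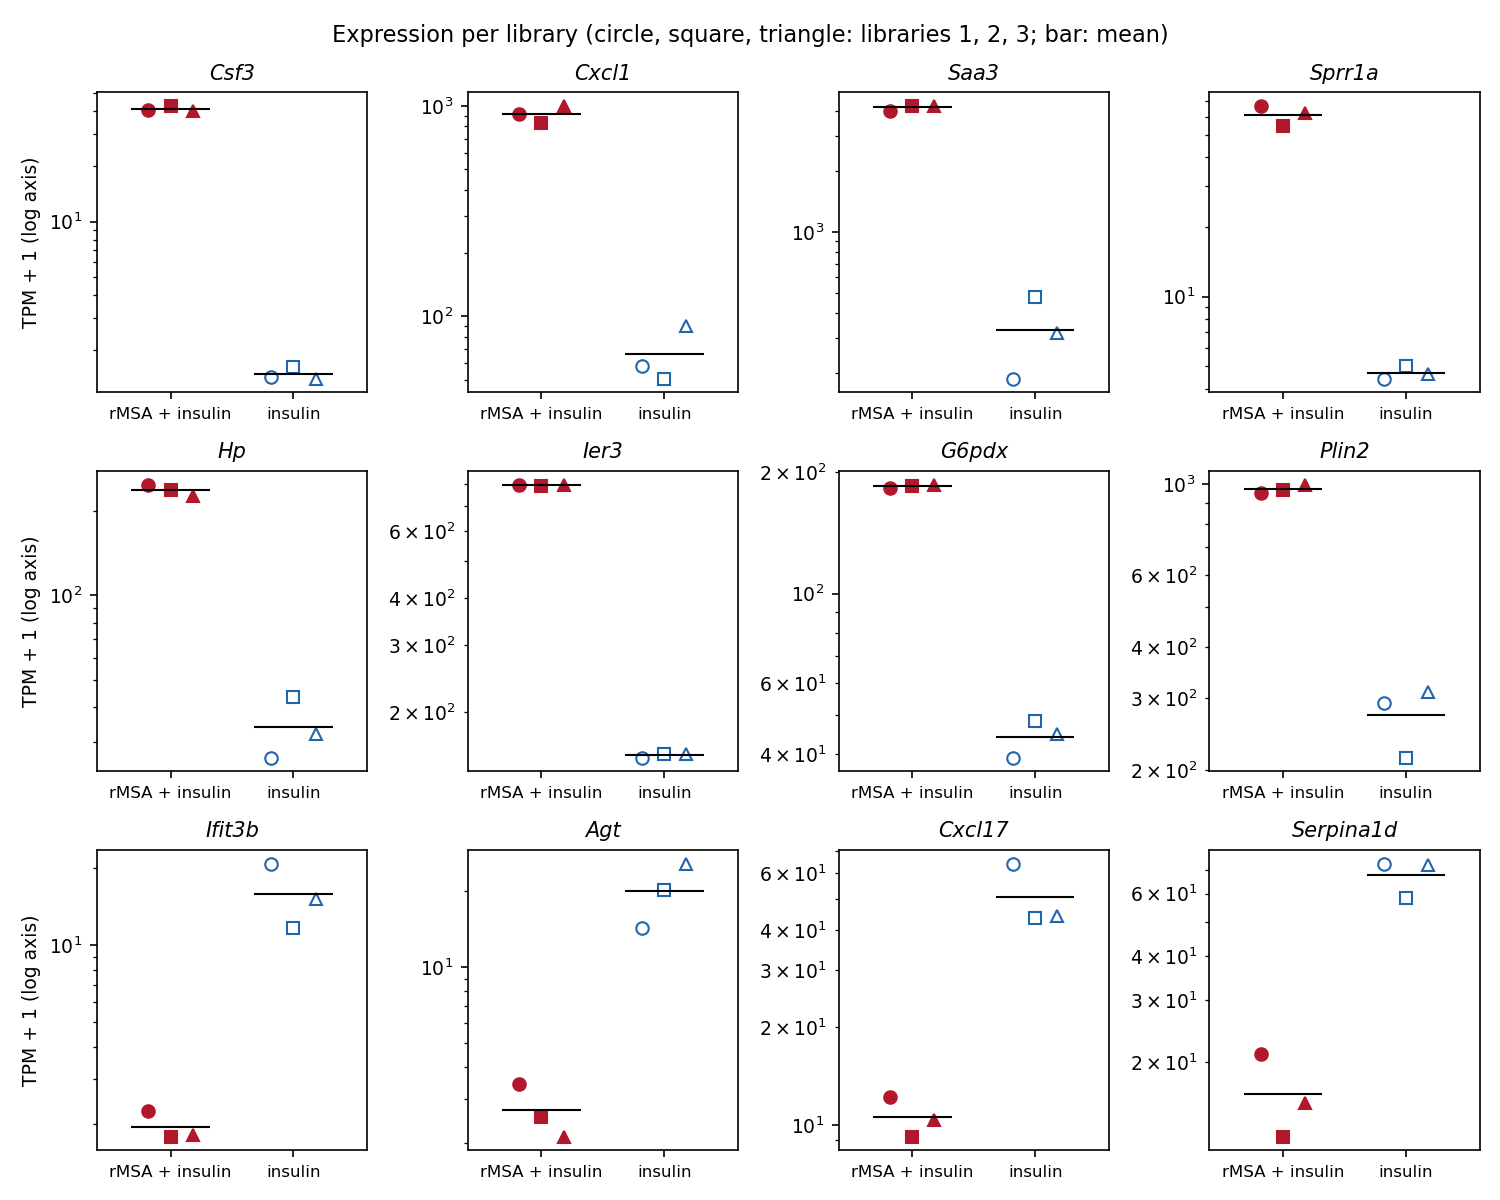
Expression (TPM + 1, log axis, a separate range in each panel) of 12 genes in the rMSA + insulin libraries (filled red) and the insulin libraries (open blue), with circle, square and triangle for libraries 1, 2 and 3 and a bar at the mean. The 12 genes were picked from the called genes, all of which lie without overlap, so all 12 panels had to show groups apart. Csf3 was at 38.9 to 41.9 TPM in rMSA + insulin and at 0.4 to 0.62 TPM in insulin. Ifit3b was at 0.79 to 1.26 TPM in rMSA + insulin and at 10.7 to 19.9 TPM in insulin. Both genes were tested only because of the group where they were high.

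With 1 TPM added, the largest fall was that of Ifit3b, an interferon-stimulated gene. It had 1.26, 0.79 and 0.82 TPM in rMSA + insulin, against 19.9, 10.7 and 14.2 TPM in insulin (-2.99 ± 0.26, adjusted p = 0.0045). Its paralog Ifit3 had 0.3, 0.48 and 0.08 TPM in rMSA + insulin, against 6.69, 2.89 and 3.95 TPM in insulin (-2.05 ± 0.28, adjusted p = 0.016, leave-one-out adjusted p = 0.11). In both genes the insulin libraries agreed, with library 1 the highest. Both were tested only because of their level in insulin. Over the alternatives other than array weights Ifit3b ranged from -3.81 to -1.72, whereas Agt and Cxcl17 stayed at or below -1.82 and -1.89. Ifit3 and Ifit3b are close copies, so reads may have been split between them. Oasl1, another interferon-stimulated gene, rose, with 5.49, 5.73 and 5.93 TPM in rMSA + insulin, against 1.56, 2.68 and 1.95 TPM in insulin (1.15 ± 0.19, adjusted p = 0.034, leave-one-out adjusted p = 0.22). Of 21 interferon-stimulated genes tested, 1 passed upward and 2 downward, and the median log2 fold change was 0.14. It was -0.07 against insulin library 3 alone and -0.12 after median centring, so the sign of the list median depended on the library and on the scaling. In antigen presentation by MHC class I, 1 of 10 genes passed: H2-D1, a class I heavy chain, with a log2 fold change of 0.80 ± 0.09, adjusted p = 0.0099 (leave-one-out adjusted p = 0.10; insulin libraries in agreement).

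The start sites of Ifit3b and Ifit3 are shown because they share 2 copies of the interferon-stimulated response element. Matches to GAAA, any 2 bases and GAAA, on either strand, are in capitals, and the stretches end at the RefSeq start site (GRCm38.p6), which lies 427 bases from the outer start of the gene model for Ifit3b and 410 for Ifit3.
Ifit3b (chr19:34607757-34607956, plus strand): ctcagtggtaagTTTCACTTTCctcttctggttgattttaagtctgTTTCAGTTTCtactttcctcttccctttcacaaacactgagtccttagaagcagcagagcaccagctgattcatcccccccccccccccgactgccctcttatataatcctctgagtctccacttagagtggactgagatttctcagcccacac
Ifit3 (chr19:34583359-34583528, plus strand): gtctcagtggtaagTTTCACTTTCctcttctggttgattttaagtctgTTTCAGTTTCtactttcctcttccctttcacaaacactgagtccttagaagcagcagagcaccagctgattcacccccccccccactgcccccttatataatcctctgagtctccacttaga
The matches began 188 and 154 bases before the start site in Ifit3b and 156 and 122 in Ifit3, in the same order and with the same letters. Such a match was found in 15.8% of 19 windows of genes called lower (3 windows), in 4.41% of 136 windows of genes called higher and in 2.36% of all 8670 windows. Ifit3 and Ifit3b, close copies that are shown because they hold the match, are 2 of the 3 windows of genes called lower.

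Protease inhibitors of the serpin family had members that passed in both directions. The antitrypsin genes Serpina1d, Serpina1b and Serpina1a, which inhibit neutrophil elastase and related proteases, fell. Serpina1d had 20.1, 11.3 and 14.4 TPM in rMSA + insulin, against 72, 57.2 and 71.2 TPM in insulin (-2.09 ± 0.23, adjusted p = 0.0091, leave-one-out adjusted p = 0.076). Serpina1b had 13.2, 7.83 and 10.8 TPM in rMSA + insulin, against 44.6, 38.2 and 44.1 TPM in insulin (-1.92 ± 0.21, adjusted p = 0.0091, leave-one-out adjusted p = 0.076). Serpina1a had 0.26, 0.47 and 0 TPM in rMSA + insulin, against 1.59, 1.52 and 2.42 TPM in insulin (-1.20 ± 0.20, adjusted p = 0.036, leave-one-out adjusted p = 0.20). In all 3 the insulin libraries agreed, but these are near-identical genes between which reads are hard to assign. Serpina1a averaged under 1 TPM in rMSA + insulin, so it had to be lower there. Of 12 serpins, 1 passed upward and 3 downward, with a median of 0.23, or -0.18 against insulin library 3 alone.

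Among hepatocyte transcription factors and secreted proteins, 1 of 18 passed upward (2.7% over all genes) and 1 downward (0.392%), with a median log2 fold change of 0.15. Agt, the precursor of angiotensin, had 2.43, 1.55 and 1.13 TPM in rMSA + insulin, against 13.2, 19.2 and 24.7 TPM in insulin (-2.88 ± 0.29, adjusted p = 0.0082, leave-one-out adjusted p = 0.066), and insulin library 3 was the highest. Trf (transferrin, the iron carrier of plasma) had 852, 757 and 856 TPM in rMSA + insulin, against 482, 514 and 593 TPM in insulin (0.64 ± 0.11, adjusted p = 0.04, leave-one-out adjusted p = 0.26). Trf did not pass after median centring, and without single libraries it passed in 2 of 6 fits. For Agt and Trf the insulin libraries agreed. Endogenous Alb, the gene of albumin itself, had 66.9, 33.4 and 47.3 TPM in rMSA + insulin, against 87.2, 52.6 and 93.8 TPM in insulin, and the groups overlapped (log2 fold change -0.66, adjusted p = 0.34). Ttr (transthyretin) had 136, 66 and 75.5 TPM in rMSA + insulin, against 268, 168 and 225 TPM in insulin, without overlap and without passing (log2 fold change -1.29, adjusted p = 0.082). The hepatocyte factor Hnf4a had 90.9, 66.1 and 86 TPM in rMSA + insulin, against 71.8, 51 and 100.15 TPM in insulin, an overlapping range. As a check of the label, the summed TPM of hepatocyte markers was 938 to 1162 in rMSA + insulin and 794 to 1027 in insulin, but 3 of the 9 hepatocyte markers in the table stayed under 1 TPM in all 6 libraries, and the bile duct keratin Krt19 averaged 1294 TPM over them. The summed TPM of bile duct markers, all 5 of them tested, was 1770.29 to 1948 in rMSA + insulin and 1765 to 2316 in insulin, which is above that of hepatocyte markers in both groups. Markers of macrophages, 3 of which are in the table, summed to 7.87 to 8.31 TPM in rMSA + insulin and 7.16 to 10.6 TPM in insulin. Markers of T and B cells, endothelial cells and stellate cells summed to at most 1.41 TPM in any of the 6 libraries. Those of neutrophils summed to 37.7 to 42.2 TPM in rMSA + insulin and 9.5 to 12.6 TPM in insulin, nearly all of it S100a8, with 5 of 7 under 1 TPM throughout.

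S100 and barrier proteins of epithelia held some of the largest rises. Sprr1a, a cornified envelope protein, had 66, 53.5 and 61.3 TPM in rMSA + insulin, against 3.42, 3.99 and 3.64 TPM in insulin (3.71 ± 0.16, adjusted p = 0.00056), and its insulin libraries differed little from each other. Sprr2h, of the same family, had 5.85, 7.26 and 9.79 TPM in rMSA + insulin, against 0, 0.09 and 0 TPM in insulin (3.04 ± 0.20, adjusted p = 0.002); as insulin was at or near 0, its fold change depends on the TPM added and ranged between 1.32 and 5.93 over the alternatives. Sprr1b had 2.62, 1.89 and 3.04 TPM in rMSA + insulin, against 0.18, 0.41 and 0.22 TPM in insulin (1.46 ± 0.18, adjusted p = 0.01, leave-one-out adjusted p = 0.096). S100a8, a subunit of calprotectin, had 40.3, 35.7 and 36.1 TPM in rMSA + insulin, against 12.1, 11.4 and 7.87 TPM in insulin (1.76 ± 0.20, adjusted p = 0.0092, leave-one-out adjusted p = 0.09). S100a4 had 20.7, 24.3 and 22.6 TPM in rMSA + insulin, against 8.53, 7.41 and 6.53 TPM in insulin (1.48 ± 0.18, adjusted p = 0.01, leave-one-out adjusted p = 0.10). In all 5 genes the insulin libraries agreed. Sprr1b and Sprr2h averaged under 1 TPM in insulin, so they had to be higher with rMSA. Of 20 genes on the list of S100 proteins, keratins and barrier genes, 4 passed upward and 0 downward, with a median log2 fold change of 0.20, close to that of all genes, and -0.05 after median centring. Sprr2h was not on that list. S100g, a calcium-binding protein also off the list, fell, with 3.42, 3.55 and 1.69 TPM in rMSA + insulin, against 11.4, 8.61 and 9.59 TPM in insulin (-1.52 ± 0.26, adjusted p = 0.037, leave-one-out adjusted p = 0.19) and insulin libraries in agreement.

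The Sprr1a promoter (chr3:92485882-92486041, minus strand, GRCm38.p6) is shown for its pair of AP-1 elements, the sites of Fos and Jun dimers such as those with the product of Fosl1, described below. It is the last 160 bases before the RefSeq start site, with matches to TGANTCA in capitals.
Sprr1a: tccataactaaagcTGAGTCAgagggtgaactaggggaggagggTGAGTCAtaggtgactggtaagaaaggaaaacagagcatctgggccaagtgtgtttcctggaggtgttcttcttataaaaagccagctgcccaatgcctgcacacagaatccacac
The matches began 146 and 116 bases before the start site. The AP-1 letters can share bases with those of the antioxidant response element searched (TGACNNNGC). They stood in 8.82% of windows of genes called higher, in 31.6% of windows of genes called lower and in 4.09% of all windows. The 31.6% stands for 6 of 19 windows, and among these 6 are those of Serpina1a, Serpina1b, Serpina1d, Ifit3 and Ifit3b, which are copies in 2 families, so the share is not one of independent genes.

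Immediate early genes and feedback genes of the ERK kinase had 6 of 24 members that passed upward and 0 downward, with a median log2 fold change of 0.35. Fosl1, an AP-1 subunit, had 48.3, 56.2 and 59.3 TPM in rMSA + insulin, against 3.18, 3.1 and 4.86 TPM in insulin (3.57 ± 0.21, adjusted p = 0.0017). Ier3, an early response gene, had 795, 791 and 794 TPM in rMSA + insulin, against 151, 154 and 154 TPM in insulin (2.37 ± 0.08, adjusted p = 0.00021), and both groups were tight, insulin library 3 included. Phlda1 had 144, 128 and 159.72 TPM in rMSA + insulin, against 32.8, 25.9 and 52.1 TPM in insulin (1.99 ± 0.25, adjusted p = 0.013, leave-one-out adjusted p = 0.11). The ETS factor Etv4 had 50.8, 44.5 and 47.9 TPM in rMSA + insulin, against 22.6, 27.6 and 25.7 TPM in insulin (0.89 ± 0.14, adjusted p = 0.024, leave-one-out adjusted p = 0.21). These 4 agreed over all insulin libraries, as did Etv5 and Junb, which also passed. Against insulin library 3 alone the median of the list was -0.32. For example, Dusp6, a phosphatase that switches ERK off, had 37.4, 28.4 and 43.3 TPM in rMSA + insulin, against 37.2, 17.3 and 64.8 TPM in insulin, with no agreement among insulin libraries.

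In the family of the EGF receptor and its ligands, 1 of 14 genes passed upward and 0 downward. Areg (amphiregulin, a ligand) had 72.3, 79.9 and 82.8 TPM in rMSA + insulin, against 14.2, 13.2 and 20.3 TPM in insulin (2.25 ± 0.19, adjusted p = 0.0041), and all insulin libraries agreed. Ereg (epiregulin) had 12.1, 9.53 and 15.6 TPM in rMSA + insulin, against 1.5, 0.83 and 5 TPM in insulin, also without overlap, but did not pass (log2 fold change 2.13, adjusted p = 0.064). The receptor gene Egfr had 20.1, 16.7 and 21.8 TPM in rMSA + insulin, against 21.8, 14.9 and 42.7 TPM in insulin (log2 fold change -0.30 ± 0.37, adjusted p = 0.71), with insulin library 3 well above the other 5 libraries. Cav1 (caveolin-1) had 92.9, 93.4 and 110.07 TPM in rMSA + insulin, against 97.8, 61.9 and 151 TPM in insulin (log2 fold change 0.02 ± 0.31, adjusted p = 0.98). The kinase Src had 35.7, 28.1 and 38.5 TPM in rMSA + insulin, against 23.3, 14.1 and 43.4 TPM in insulin (0.46 ± 0.38, adjusted p = 0.59). In all 3 genes insulin libraries 2 and 3 lay on opposite sides of the rMSA + insulin libraries, so the insulin libraries did not agree.

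Of 25 genes between the insulin receptor, AKT and FOXO1, 2 passed upward and 0 downward, with a median log2 fold change of 0.14, or -0.37 against insulin library 3 alone. After median centring, quantile normalization or rescaling without ribosomal protein genes, 0 of the 25 passed in either direction. After rescaling without the 50 highest genes, 1 passed upward. Pik3r2, a regulatory subunit of PI3-kinase, had 166, 158 and 158 TPM in rMSA + insulin, against 91.2, 109 and 98.4 TPM in insulin (0.69 ± 0.10, adjusted p = 0.024, leave-one-out adjusted p = 0.20). Trib3, a pseudokinase that binds AKT, had 178, 211 and 206 TPM in rMSA + insulin, against 80.7, 116 and 107 TPM in insulin (0.97 ± 0.16, adjusted p = 0.032, leave-one-out adjusted p = 0.19), and the insulin libraries agreed for both. The receptor gene Insr had 6.14, 5.05 and 6.8 TPM in rMSA + insulin, against 6.24, 3.95 and 9.7 TPM in insulin (log2 fold change -0.06 ± 0.31, adjusted p = 0.93). Igf1r, the receptor of IGF-1, had 5.19, 4.64 and 5.41 TPM in rMSA + insulin, against 5.24, 4.77 and 9.37 TPM in insulin (-0.25 ± 0.26, adjusted p = 0.68). Akt1 had a log2 fold change of 0.20 ± 0.12, adjusted p = 0.43, Akt2 one of 0.40 ± 0.21, adjusted p = 0.39, and the catalytic subunit Pik3ca one of 0.15 ± 0.34, adjusted p = 0.84. For the AKT substrates, Gsk3b had a log2 fold change of 0.12 ± 0.30, adjusted p = 0.86 and Foxo1 one of 0.15 ± 0.22, adjusted p = 0.77. In none of these 7 genes did the insulin libraries agree.

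Glycolysis and glucose transport had 4 of 23 members that passed upward (2.7% over all genes) and 0 downward, with a median log2 fold change of 0.38. The lowest was -0.77. The insulin libraries agreed upward in 13 of the 23 (20.9% over all genes) and downward in 3 (4.81%). After median centring 1 passed upward, and after quantile normalization 3. Rescaling without the 50 highest genes left 4, and rescaling without ribosomal protein genes left 2. The glucose transporter Slc2a1 had 65.7, 62 and 73.9 TPM in rMSA + insulin, against 20.1, 18.5 and 32.9 TPM in insulin (1.50 ± 0.23, adjusted p = 0.024, leave-one-out adjusted p = 0.16). Ldha, which makes lactate, had 746, 683 and 720.29 TPM in rMSA + insulin, against 382, 363 and 449 TPM in insulin (0.85 ± 0.11, adjusted p = 0.013, leave-one-out adjusted p = 0.12). Pkm, the pyruvate kinase of most tissues outside the liver, had 3019, 2831 and 2934 TPM in rMSA + insulin, against 1788, 1766 and 1823 TPM in insulin (0.71 ± 0.09, adjusted p = 0.013, leave-one-out adjusted p = 0.14). Pfkm, a phosphofructokinase, had 106, 91.2 and 94.9 TPM in rMSA + insulin, against 60.2, 61.9 and 68.7 TPM in insulin (0.61 ± 0.11, adjusted p = 0.048, leave-one-out adjusted p = 0.29). In all 4 genes the insulin libraries agreed, and library 3 was the highest in each. After median centring Ldha, Pkm and Pfkm no longer passed (adjusted p = 0.20, 0.49 and 0.45). Pklr, the pyruvate kinase of hepatocytes, had 124, 105 and 119 TPM in rMSA + insulin, against 117, 103 and 141 TPM in insulin and did not agree between insulin libraries (log2 fold change -0.04 ± 0.15, adjusted p = 0.91). In gluconeogenesis 0 of 8 genes passed by limma, with 4 at an unadjusted p under 0.05, all upward (15% over all genes), and a median of 0.45.

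**Figure D4:**
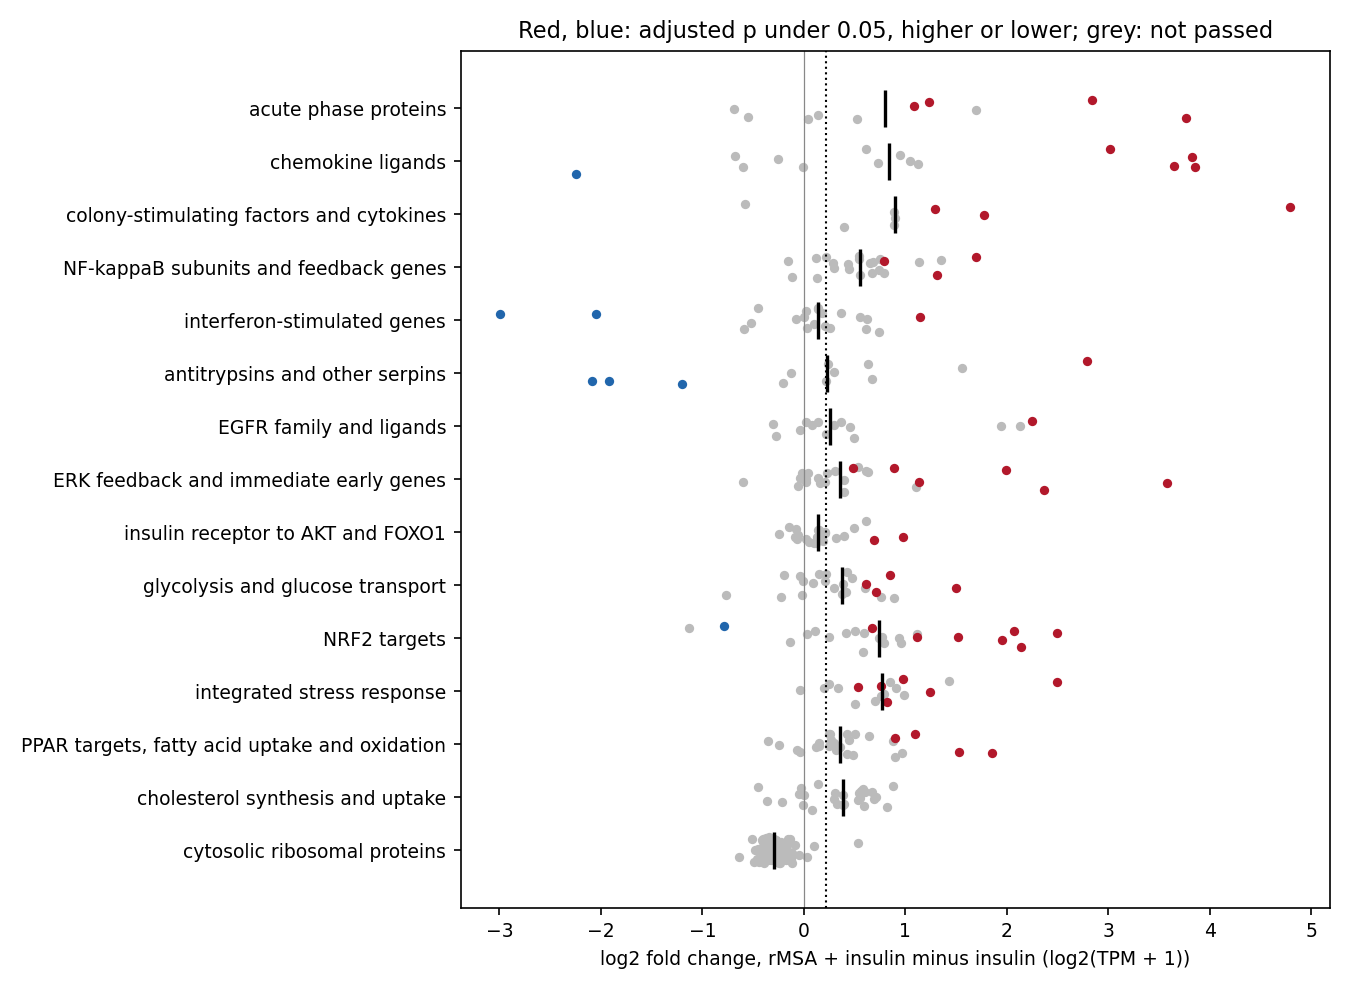
Log2 fold change (rMSA + insulin minus insulin, log2(TPM + 1)) of every tested member of 15 gene lists, red or blue where the adjusted p is under 0.05 and grey otherwise, with a black bar at the median of a list and a dotted line at the median of all genes (0.21). The lists of acute phase proteins, chemokines and colony-stimulating factors have members past a log2 fold change of 3, whereas the ribosomal protein genes lie together around their median of -0.29.

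Genes that defend against oxidants and foreign chemicals rose in part. Of 23 targets of NRF2, the factor that responds to oxidants, 7 passed upward and 1 downward, with a median log2 fold change of 0.74 but 0.01 against insulin library 3 alone. G6pdx, the first enzyme of the pentose phosphate pathway, had 181, 184 and 185 TPM in rMSA + insulin, against 38.3, 47.3 and 44 TPM in insulin (2.07 ± 0.11, adjusted p = 0.0017). The glutathione transferase Gsta4 had 1049.96, 1073 and 1039 TPM in rMSA + insulin, against 405, 341 and 362 TPM in insulin (1.51 ± 0.10, adjusted p = 0.002). Gsta1 had 195, 238 and 237 TPM in rMSA + insulin, against 42.2, 51.5 and 56.5 TPM in insulin (2.14 ± 0.15, adjusted p = 0.0024). The closely related Gsta2 had 7.88, 6.53 and 11.7 TPM in rMSA + insulin, against 1.51, 1.98 and 0.94 TPM in insulin (1.96 ± 0.27, adjusted p = 0.018, leave-one-out adjusted p = 0.12). Pgd and Srxn1 passed as well, and Slc7a11 is described with the stress genes. Gstm1, another glutathione transferase, fell, with 294, 299 and 284 TPM in rMSA + insulin, against 509, 596 and 422 TPM in insulin (-0.78 ± 0.14, adjusted p = 0.039, leave-one-out adjusted p = 0.23). In all these genes the insulin libraries agreed. Hmox1, which breaks down haem, had 284, 258 and 314 TPM in rMSA + insulin, against 136, 106 and 217 TPM in insulin, without overlap and without passing (adjusted p = 0.11). Txnrd1, a thioredoxin reductase, had 72.4, 58.5 and 96.7 TPM in rMSA + insulin, against 29.6, 16.9 and 75.8 TPM in insulin. The catalytic subunit of glutathione synthesis Gclc had 232, 164 and 271 TPM in rMSA + insulin, against 123, 50.2 and 231 TPM in insulin. In both, insulin library 3 lay within the range of the rMSA + insulin libraries and insulin library 2 far below it.

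Of 15 enzymes that remove superoxide and peroxides, 2 passed upward and 0 downward. Mitochondrial Sod2 had 87.2, 85.2 and 94.5 TPM in rMSA + insulin, against 36.5, 37.9 and 41.7 TPM in insulin (1.18 ± 0.11, adjusted p = 0.0067, leave-one-out adjusted p = 0.073). Prdx5, a peroxiredoxin, had 734, 745 and 697 TPM in rMSA + insulin, against 457, 487 and 399.63 TPM in insulin (0.70 ± 0.11, adjusted p = 0.024, leave-one-out adjusted p = 0.18). Targets of the aryl hydrocarbon receptor, which senses planar aromatic compounds, had 2 of 6 members that passed upward and 0 downward. Cyp1a1, a cytochrome P450, had 30.4, 20.2 and 27.5 TPM in rMSA + insulin, against 2.54, 1.13 and 3.54 TPM in insulin (3.04 ± 0.33, adjusted p = 0.0091, leave-one-out adjusted p = 0.073). Aldh3a1, an aldehyde dehydrogenase, had 2.92, 3.06 and 2.93 TPM in rMSA + insulin, against 0.55, 0.44 and 0.22 TPM in insulin (1.51 ± 0.15, adjusted p = 0.008, leave-one-out adjusted p = 0.073). Each of these 4 genes agreed over the insulin libraries. Aldh3a1 averaged under 1 TPM in insulin, so it had to be higher with rMSA. The median of the 6 targets was 1.07, but 0.06 against insulin library 3 alone.

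The integrated stress response, in which ATF4 raises genes of amino acid supply, had 6 of 18 members that passed upward (2.7% over all genes) and 0 downward. In 13 all insulin libraries agreed upward (20.9% over all genes), and the median log2 fold change was 0.77. The count of 6 depended on the scaling. It was 4 after median centring and 6 after quantile normalization. Rescaling without the 50 highest genes left 3, and rescaling without ribosomal protein genes left 2. Slc7a11, the cystine importer, had 20.4, 17.9 and 28.7 TPM in rMSA + insulin, against 2.4, 1.67 and 6.42 TPM in insulin (2.49 ± 0.41, adjusted p = 0.032, leave-one-out adjusted p = 0.18), and the highest insulin library was 3.84 times the lowest. Chac1, which degrades glutathione, had 88.4, 90.7 and 101 TPM in rMSA + insulin, against 34.6, 36.9 and 46.3 TPM in insulin (1.24 ± 0.14, adjusted p = 0.0099, leave-one-out adjusted p = 0.091). Slc3a2, the partner of Slc7a11, had 1765, 1853 and 1715 TPM in rMSA + insulin, against 892, 1158 and 979.74 TPM in insulin (0.82 ± 0.12, adjusted p = 0.022, leave-one-out adjusted p = 0.16), and Atf4 and Shmt2 passed as well. Agreement held in these 5 and in Trib3, given above. Of 14 amino acid transporters 3 passed upward and 0 downward, the third being the glutamine carrier Slc1a5 (0.78 ± 0.13, adjusted p = 0.033, leave-one-out adjusted p = 0.21), which agreed too. Atf3, a factor of the same response, had 46.3, 57.3 and 54.7 TPM in rMSA + insulin, against 25.6, 35.1 and 41.8 TPM in insulin, without overlap and without passing (log2 fold change 0.63 ± 0.20, adjusted p = 0.17). Of 20 chaperones of the endoplasmic reticulum, 1 passed upward (2.7% over all genes), Manf (0.59 ± 0.10, adjusted p = 0.037, leave-one-out adjusted p = 0.24), with insulin libraries in agreement and a list median of 0.53.

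The promoters of Slc7a11, Chac1 and Atf3 are shown because each holds the C/EBP-ATF response element, to which ATF4 binds. Matches to TTGCATCA on either strand are in capitals, and the stretches are taken from the 250 bases before the RefSeq start site (GRCm38.p6) on the gene's strand. The start site of Slc7a11 lies 55474 bases from the outer start of its gene model.
Slc7a11 (chr3:50443614-50443703, minus strand): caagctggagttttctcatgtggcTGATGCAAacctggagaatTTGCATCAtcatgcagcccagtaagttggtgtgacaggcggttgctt
Chac1 (chr2:119351042-119351241, plus strand): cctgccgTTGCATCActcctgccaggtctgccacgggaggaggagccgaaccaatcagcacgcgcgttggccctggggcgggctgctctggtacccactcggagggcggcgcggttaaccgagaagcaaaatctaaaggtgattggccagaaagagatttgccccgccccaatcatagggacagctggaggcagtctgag
Atf3 (chr1:191183334-191183463, minus strand): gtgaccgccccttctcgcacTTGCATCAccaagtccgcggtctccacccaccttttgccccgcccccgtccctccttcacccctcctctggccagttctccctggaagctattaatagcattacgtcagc
The matches began 66 and 47 bases before the start site in Slc7a11, 193 in Chac1 and 110 in Atf3. They are rare: 0.519% of all 8670 windows and 1.47% of the 136 windows of genes called higher held one, which are the 2 of Slc7a11 and Chac1, shown for this match, and 0 of 19 windows of genes called lower did.

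Lipid droplets store neutral fat, and PPAR factors switch on genes of fatty acid use. Of 27 PPAR targets and genes of fatty acid uptake and oxidation, 4 passed upward and 0 downward, with a median log2 fold change of 0.35. Plin2, the coat protein of lipid droplets, had 950.09, 963 and 995 TPM in rMSA + insulin, against 291, 214 and 311 TPM in insulin (1.85 ± 0.15, adjusted p = 0.0041). Angptl4, an inhibitor of lipoprotein lipase, had 62, 57.7 and 55.6 TPM in rMSA + insulin, against 33.2, 33 and 26.6 TPM in insulin (0.90 ± 0.14, adjusted p = 0.024, leave-one-out adjusted p = 0.20). The receptor Ppard had 38, 39 and 40.1 TPM in rMSA + insulin, against 14.9, 22.3 and 16.9 TPM in insulin (1.09 ± 0.18, adjusted p = 0.03, leave-one-out adjusted p = 0.21). Agreement held in these 3. In fatty acid synthesis 0 of 19 genes passed by limma, with 3 at an unadjusted p under 0.05, all upward, a share near the 15% of all genes. In cholesterol synthesis and uptake 0 of 27 passed, with 2 upward and 2 downward at an unadjusted p under 0.05. Fdps, an enzyme of the mevalonate pathway, had 695, 682 and 612 TPM in rMSA + insulin, against 822, 952 and 788 TPM in insulin, without overlap and without passing (log2 fold change -0.36 ± 0.11, adjusted p = 0.16).

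Among receptors that take up albumin, 1 of 7 passed: the scavenger receptor Stab1, which had 2.22, 1.83 and 1.95 TPM in rMSA + insulin, against 0.27, 0.36 and 0.41 TPM in insulin (1.15 ± 0.13, adjusted p = 0.0096, leave-one-out adjusted p = 0.087). Stab1 averaged under 1 TPM in insulin, so it was tested only because of its level with rMSA and had to be higher there. Of 12 genes of iron uptake and storage, 3 passed upward and 0 downward. Fth1, the ferritin heavy chain, had 17986, 20570 and 19757 TPM in rMSA + insulin, against 9107, 11628 and 10758 TPM in insulin (0.89 ± 0.14, adjusted p = 0.029, leave-one-out adjusted p = 0.21). Slc11a2, an iron transporter, had 62.6, 59.9 and 66.6 TPM in rMSA + insulin, against 22.9, 24.2 and 38 TPM in insulin (1.16 ± 0.21, adjusted p = 0.039, leave-one-out adjusted p = 0.23). Id1, a target of BMP signalling, had 249.96, 225 and 220.3 TPM in rMSA + insulin, against 97.4, 104 and 102 TPM in insulin (1.19 ± 0.10, adjusted p = 0.0041). These 4 genes agreed over the insulin libraries. After median centring 1 of the 12 iron genes passed, and Fth1 and Id1 no longer did (adjusted p = 0.50 and 0.11). Ptgs2, the inducible cyclooxygenase, was the only one of 8 prostaglandin genes that passed, with 16.3, 12.2 and 26.1 TPM in rMSA + insulin, against 0.54, 0.29 and 1.21 TPM in insulin (3.49 ± 0.33, adjusted p = 0.0067, leave-one-out adjusted p = 0.062), insulin library 3 being the highest of insulin libraries in agreement. Ptgs2, too, averaged under 1 TPM in insulin and had to be higher with rMSA. Chil1, a chitinase-like secreted protein, had 33.9, 39.3 and 44.5 TPM in rMSA + insulin, against 1.6, 3.21 and 3.16 TPM in insulin (3.49 ± 0.25, adjusted p = 0.0025), again with agreement.

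In the cell cycle list 1 of 30 genes passed, the kinase inhibitor Cdkn1a with 365, 382 and 365 TPM in rMSA + insulin, against 194, 245 and 212 TPM in insulin (0.78 ± 0.11, adjusted p = 0.02, leave-one-out adjusted p = 0.14), and the median was 0.06. Over all genes 2.7% passed upward, so 1 of 30 is near that share and is no result about the list. Of 19 matrix genes 1 passed upward (2.7% over all genes), Lamb3, a laminin chain, with 79.98, 75 and 82.1 TPM in rMSA + insulin, against 30.7, 36.5 and 40.7 TPM in insulin (1.12 ± 0.14, adjusted p = 0.011, leave-one-out adjusted p = 0.11). Of 10 glucocorticoid receptor genes and targets 0 passed by limma, with 1 in each direction at an unadjusted p under 0.05. Their median was 0.28 in all and -0.71 against insulin library 3 alone. Of 80 ribosomal protein genes 0 passed, 20 had an unadjusted p under 0.05, all downward (2.74% over all genes), and 26 agreed downward (4.81% over all genes), with a median of -0.29. This list moves with the ribosomal share of the insulin libraries given above, and its median against insulin library 3 alone was -0.06.

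The remaining large falls were of 3 unrelated genes. Foxj1, a factor of motile cilia, had 5.44, 3.52 and 4.42 TPM in rMSA + insulin, against 22.5, 18.8 and 21.8 TPM in insulin (-2.02 ± 0.20, adjusted p = 0.008, leave-one-out adjusted p = 0.073). Depp1, a FOXO target, had 9.71, 9.27 and 7.47 TPM in rMSA + insulin, against 34.1, 25 and 31.7 TPM in insulin (-1.67 ± 0.19, adjusted p = 0.0096, leave-one-out adjusted p = 0.084). The Wnt ligand Wnt4 had 1.04, 0.99 and 0.81 TPM in rMSA + insulin, against 4.52, 5 and 4.55 TPM in insulin (-1.55 ± 0.15, adjusted p = 0.0071, leave-one-out adjusted p = 0.081). In all 3 genes the insulin libraries agreed, and library 3 lay between libraries 1 and 2. Wnt4 averaged under 1 TPM in rMSA + insulin, so it had to be lower there.

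Whether rMSA made another difference with insulin than without it was tested by the interaction, that is, the difference between rMSA + insulin and insulin minus the difference between rMSA and vehicle. Of 10702 genes, 4 passed at an adjusted p under 0.05 (0.0374%), and 3 of these had an interaction of at least 2-fold. Itgb7, an integrin chain of leukocytes, had 22.8, 28.9 and 27.9 TPM in rMSA + insulin, against 1.71, 3.02 and 2.67 TPM in insulin, and 6.21, 6.72 and 5.25 TPM in rMSA, against 1.79, 1.92 and 1.87 TPM in vehicle (interaction 1.70 ± 0.23, adjusted p = 0.046). Ier3, with its values under insulin given above, had 524, 533 and 523 TPM in rMSA, against 155, 164 and 169 TPM in vehicle (interaction 0.68 ± 0.08, adjusted p = 0.021). In both genes rMSA went with higher values with and without insulin, and by more with insulin. Gdf15, a stress cytokine, had 42.9, 42.1 and 43.5 TPM in rMSA + insulin, against 27.8, 24.1 and 23.3 TPM in insulin, and 17.8, 21 and 18.1 TPM in rMSA, against 27.3, 26.8 and 25.3 TPM in vehicle (interaction 1.21 ± 0.14, adjusted p = 0.021). It was higher with rMSA under insulin (0.75 ± 0.13, adjusted p = 0.036, leave-one-out adjusted p = 0.26) and lower with rMSA in its absence (log2 fold change -0.46, adjusted p = 0.016). Atf3 had 15.5, 17.1 and 14.7 TPM in rMSA, against 33.1, 37.7 and 32.3 TPM in vehicle (interaction 1.71 ± 0.23, adjusted p = 0.046). It too was lower with rMSA than with vehicle (log2 fold change -1.08, adjusted p = 0.002, limma over all 12 libraries). Under insulin Atf3 was higher without passing in the fit of 6 libraries, but it passed in 3 of 18 alternatives other than array weights. The 2 differences come from unlike fits, so whether each passed cannot be compared directly. The insulin libraries agreed in all 4 genes. The count of 3 fell to 0 after median centring, quantile normalization or either rescaling, and with the replicate number as a block. It also fell to 0 without any single rMSA + insulin, rMSA or vehicle library, and it was 2, 11 and 68 without insulin library 1, 2 or 3. In the settings with a count of 0, limma gave 413 to 730 of 10702 genes at an unadjusted p under 0.05, against 698 in the main fit. A share of 0.05 is reached where no gene differs, so these counts are not read as interactions. Csf3 (interaction 1.03 ± 0.17, adjusted p = 0.13), Cxcl1 (1.07 ± 0.25, adjusted p = 0.34) and Saa3 (-0.13 ± 0.36, adjusted p = 0.999) did not pass.

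**Figure D5:**
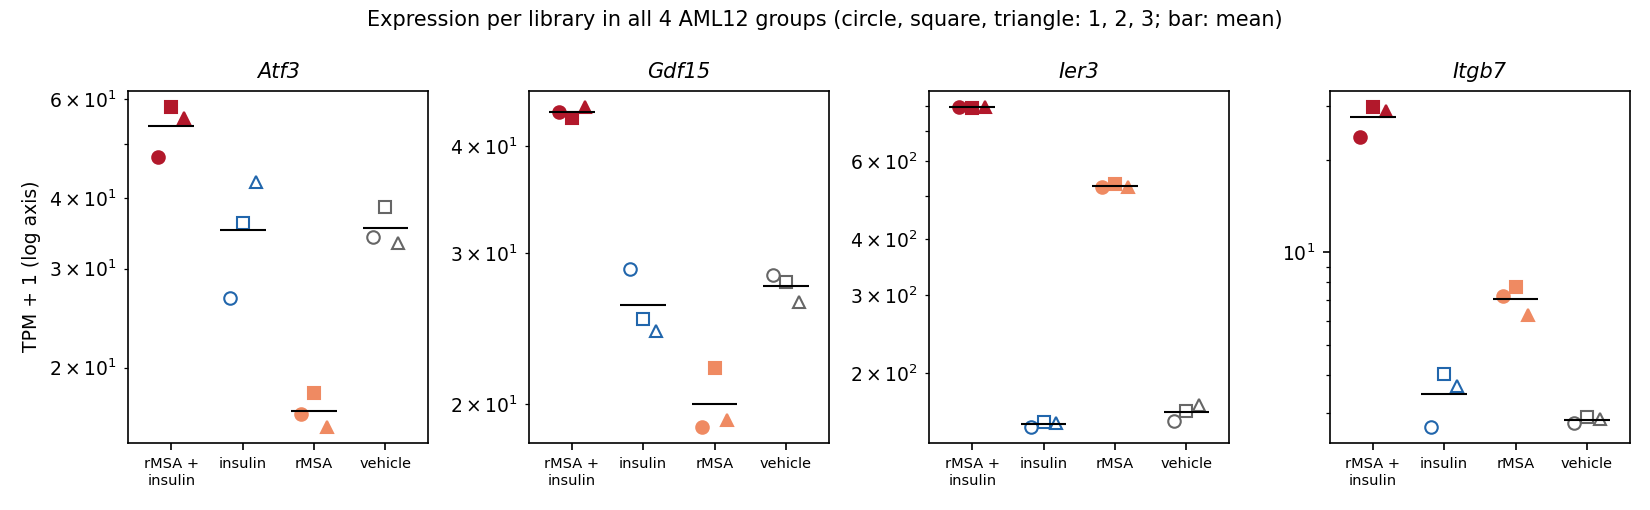
Expression (TPM + 1, log axis) of Atf3, Gdf15, Ier3 and Itgb7 in all 12 AML12 libraries, with the groups rMSA + insulin, insulin, rMSA and vehicle along the axis, circle, square and triangle for libraries 1, 2 and 3, and a bar at the mean. Atf3 and Gdf15 are lowest in the rMSA group and highest in rMSA + insulin, whereas Ier3 and Itgb7 are higher in both rMSA groups, and highest with insulin.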

How the data were processed

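RNA of AML12 hepatocytes was isolated, libraries were made after removal of ribosomal RNA and purification with oligo(dT), and they were sequenced on a BGISEQ instrument. The authors deposited TPM values with 2 decimals. The submitters' processing notes name Trimmomatic 0.33, STAR 2.5.2b, featureCounts, Subread 1.6.0 and the build GRCm38. How TPM was computed, on which annotation and whether by strand is not given in the sources used here, so overlapping or antisense genes and near-identical copies may share reads. TPM values hold no read counts: the study's DESeq2 test could not be run, and the depth and the counting precision are unknown. TPM has the same total in each library, so a rise of abundant genes lowers all others.

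Genes that averaged 1 TPM or more in the 6 libraries were fitted on log2(TPM + 1) with limma 3.58.1 in R 4.3.3 (empirical Bayes with trend, Benjamini-Hochberg adjustment over the genes tested). For the main comparison only the groups compared entered the fit, since the insulin libraries spread more widely. The interaction and the difference between rMSA and vehicle were fitted over all 12 AML12 libraries. Both rest on a spread shared by the 4 groups. As the insulin libraries spread more widely, the SE of the interaction may be too small. The liver table was not used here. Positions and promoters are from RefSeq (GRCm38.p6), which matched 15531 of 15579 genes, and 73 of the genes that meet the rule below had a promoter window. Promoters were searched on both strands for GGG, any 2 bases and TTTCC (NF-kappaB), TTGCNNAA (C/EBP), TGANTCA (AP-1), GAAA, any 2 bases and GAAA (interferon-stimulated response element), TGACNNNGC (antioxidant response element), TTGCATCA (C/EBP-ATF response element) and TTGCGTG (xenobiotic response element core) over the 250 bases before the start site. In windows of genes called higher, called lower and all tested, in that order, C/EBP matches stood in 17.6%, 21.1% and 7.21%. Those of the antioxidant response element stood in 12.5%, 5.26% and 12.0%, and those of the xenobiotic core in 0.735%, 0% and 1.35%. The script was tested on simulated data.

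Named are, among called genes without overlap, the 10 that rose most and the 10 that fell most, up to 4 members of each list in each direction with the smallest p, or where none passed up to 2 with the highest mean, the genes of the signalling proteins and glycolysis enzymes the paper measured, and up to 5 genes with the largest interaction among those that passed. Several genes chosen this way are not reported here. Csf1, Ccl2, Ccl20, Nfkb1, Tnfaip3, Nfkbia, Cebpb, Stat3, Lcn2, Alb, Ttr, Hnf4a, Krt19, Dusp6, Ereg, Hmox1, Txnrd1, Gclc and the genes said only to have passed as well were added after their values were seen. The lists and the comparison were chosen with earlier results of these data known. Alternatives were 0.1 or 5 TPM added, no filter or one at 5 TPM, 4 scalings, all 12 libraries in the fit, a robust fit, array weights, the replicate number as a block, no fold threshold, each library left out in turn, and insulin library 3 alone. Genes at 0 TPM in all insulin libraries, of which the table holds 0, were not analysed here.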

Additional observations from a re-analysis of the deposited data

Results flagged for a closer look

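The interaction of rMSA and insulin stood out for 4 genes, whose difference with rMSA was tested to be another one under insulin than without insulin (limma over all 12 AML12 libraries). The interaction was 1.71 for Atf3 (adjusted p = 0.046), 1.21 for Gdf15 (adjusted p = 0.021), 0.68 for Ier3 (adjusted p = 0.021) and 1.70 for Itgb7 (adjusted p = 0.046), all on the log2(TPM + 1) scale. Over the alternatives other than array weights it stayed between 1.4 and 1.86 for Atf3, between 1.03 and 1.31 for Gdf15, between 0.49 and 0.71 for Ier3 and between 1.39 and 1.82 for Itgb7. The highest adjusted p among these alternatives was 0.22 for Atf3, 0.51 for Gdf15, 0.999 for Ier3 and 0.32 for Itgb7. Groups of 3 libraries are too small for a test of single libraries that stand apart.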

How the results depend on the processing

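The count of called genes (203, of which 175 higher and 28 lower) was within 1.5 times with 0.1 TPM added, without a filter, with a robust fit and under all 4 scalings, but the split moved: median centring gave 93 higher and 54 lower genes (63.3% higher), quantile normalization 115 and 59 (66.1%), rescaling without the 50 highest genes 176 and 44 (80.0%), and rescaling without ribosomal protein genes 158 and 47 (77.1%). The median of all genes was -0.04, -0.01, 0.14 and 0.10 in these settings, against 0.21 as deposited. Calls numbered 110 (97 higher, 13 lower) with 5 TPM added, 129 (110 higher) with a filter at 5 TPM, and 331 (289 higher) without a fold threshold. With all 12 libraries in the fit they numbered 295 (250 higher, 45 lower), and with insulin library 3 alone 338 (157 lower). Array weights gave 451 (407 higher, 44 lower), but the estimate did not converge and put nearly all weight of the insulin group on library 1, so this fit is no check. Without single libraries the count ranged from 34 to 566, that of higher genes from 32 to 528 and that of lower genes from 1 to 50. The cause was not tested.

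With the replicate number as a block, 321 genes were called (273 higher, 48 lower). Same-numbered libraries had correlations of their deviations from the group mean of 0.10, 0.79 and 0.80. Each library correlated best with its own number, a hint from the data and not from the design. Across numbers, rMSA + insulin 3 with insulin 2 gave -0.77, and rMSA + insulin 2 with insulin 3 gave -0.81. The labels do not say whether same-numbered libraries belong together, and these correlations cannot settle it. The main fit used no block.

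The interaction, with 3 genes at a 2-fold threshold, gave 1 with 0.1 TPM added and without a filter, 5 with 5 TPM added and with insulin library 3 alone, 64 with array weights, 0 under each of the 4 scalings and with the block, and 0 to 68 without single libraries. In the settings at 0, limma gave 413 to 730 of 10702 genes at an unadjusted p under 0.05. As a share of 0.05 is reached where no gene differs, these counts are not read as interactions.

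Of the named genes, 0 of 76 that passed reversed anywhere, and those below did not pass. Median centring turned Akt1 to -0.050, Cav1 to -0.23, Foxo1 to -0.11, Gsk3b to -0.13 and Pik3ca to -0.10. Quantile normalization turned Cav1 to -0.17, Foxo1 to -0.10, Gsk3b to -0.14 and Pik3ca to -0.12. Cav1 was -0.074 without the 50 highest genes, -0.12 without ribosomal protein genes and -0.032 with array weights, which gave 0.051 for Pklr. Against insulin library 3 alone the values were -0.017 for Akt2, -0.61 for Cav1, -0.22 for Foxo1, -0.47 for Gsk3b, -0.55 for Pik3ca and -0.35 for Src. Without single libraries the log2 fold changes ranged from -0.30 to 0.34 for Cav1, -0.63 to 0.098 for Egfr, -0.13 to 0.42 for Gsk3b, -0.41 to 0.017 for Igf1r, -0.34 to 0.22 for Insr, -0.10 to 0.50 for Pik3ca and -0.15 to 0.081 for Pklr. Of the 76 that passed, 16 no longer did after quantile normalization, 10 after rescaling without the 50 highest genes and 16 without ribosomal protein genes. Depth limits cannot be given for TPM.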

Other observations

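Several called genes outside the lists came in families, and they are given here after their values were seen, with no test beyond the one over all genes. Of the paired immunoglobulin-like receptors, Pilra, an inhibitory one, had 36.8, 33 and 38.7 TPM in rMSA + insulin, against 3.67, 4.31 and 5.29 TPM in insulin (2.79 ± 0.19, adjusted p = 0.002). Its activating relatives rose too: Pilrb1 had 21.9, 14.8 and 18 TPM in rMSA + insulin, against 1.21, 1.23 and 2.82 TPM in insulin (2.84 ± 0.29, adjusted p = 0.008) and Pilrb2 17.1, 15.7 and 15.7 TPM in rMSA + insulin, against 2.15, 2.06 and 2.81 TPM in insulin (2.37 ± 0.18, adjusted p = 0.0032). The 3 insulin libraries agreed for all 3 genes, in which related sequences may share reads. The pantetheinases, which release vitamin B5, behaved likewise: Vnn1 had 96.2, 82.8 and 109.61 TPM in rMSA + insulin, against 29.4, 29.4 and 54.2 TPM in insulin (1.38 ± 0.26, adjusted p = 0.048) and Vnn3 139, 145 and 157 TPM in rMSA + insulin, against 32.1, 60.2 and 53.1 TPM in insulin (1.63 ± 0.23, adjusted p = 0.02). The enzymes that turn arginine in proteins into citrulline also rose, Padi1 with 24.1, 23.2 and 23.9 TPM in rMSA + insulin, against 7.44, 7.33 and 8.74 TPM in insulin (1.49 ± 0.16, adjusted p = 0.009) and Padi2 with 111, 86.8 and 111 TPM in rMSA + insulin, against 27.4, 28.2 and 46.1 TPM in insulin (1.61 ± 0.23, adjusted p = 0.02). Agreement held in these 4 genes too.

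Of genes that handle vitamin A, Aldh1a1, which makes retinoic acid, had 87.2, 65.2 and 81.2 TPM in rMSA + insulin, against 18.9, 11.4 and 22.1 TPM in insulin (2.13 ± 0.26, adjusted p = 0.01), and Dhrs3, which reduces retinal, had 61.1, 59.7 and 53.4 TPM in rMSA + insulin, against 14.4, 20.9 and 11.1 TPM in insulin (1.88 ± 0.23, adjusted p = 0.011). Stra6, the receptor for the retinol carrier of plasma, fell, with 2.37, 1.74 and 2.44 TPM in rMSA + insulin, against 7.68, 7.78 and 8.2 TPM in insulin (-1.49 ± 0.18, adjusted p = 0.01). The lysophospholipid transporters Spns2 and Spns3 fell, Spns2 (an exporter of sphingosine 1-phosphate) with 51.1, 38 and 43.2 TPM in rMSA + insulin, against 128, 98.1 and 141 TPM in insulin (-1.45 ± 0.18, adjusted p = 0.012) and Spns3 with 20.6, 19.8 and 20.2 TPM in rMSA + insulin, against 62.5, 63.5 and 46.4 TPM in insulin (-1.45 ± 0.16, adjusted p = 0.0092). The clock genes Arntl and Nr1d1, a repressor of Arntl, both rose: Arntl had 6.2, 5.63 and 7.34 TPM in rMSA + insulin, against 1.22, 0.52 and 2.35 TPM in insulin (1.71 ± 0.31, adjusted p = 0.039) and Nr1d1 66, 67.6 and 68.5 TPM in rMSA + insulin, against 24.4, 34.6 and 31.3 TPM in insulin (1.15 ± 0.15, adjusted p = 0.016). All 3 insulin libraries agreed in these 7 genes.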
